A study of Mus musculus with 12 samples.

Results

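The 10 genes described here encode receptors with which neutrophils read antibody and other activating or inhibitory signals, and partners of those receptors. They are Fcgr3, Fcgr4, Fcgr2b and Fcer1g (Fc receptor chains), Pirb, Sirpa and Cd300lf (inhibitory receptors), Cd47 (the ligand of SIRPα), and Trem1 and Trem3 (activating receptors). They were taken by gene symbol from the deposited table, which lists 11494 genes, and all 10 were among the 9742 genes that passed the filter on low values. RNA was measured in blood neutrophils of mice after bone marrow transplantation (BMT). The samples form a Control BMT group with the genotype label Control (6 libraries) and an LOY BMT group with the genotype label LOY, for loss of the Y chromosome (6 libraries). Every sample in both groups has the treatment label Control, and every sample was a sort of 10000 Ly6G+ CD115- RFP+ cells from blood. The labels used here give no strain, age or time after transplantation, do not say how Y was lost, what RFP marks or which host cells remained, and do not tell if the libraries are from separate mice. P-values therefore measure only the spread between these libraries, which may be technical. Because these are bulk samples, fewer cells of a type and less RNA per cell cannot be told apart.

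Fc receptors bind the constant part of antibodies. FcγRIII (Fcgr3) and FcγRIV (Fcgr4) are activating: they pair with the FcRγ chain (Fcer1g), whose ITAM motif recruits the kinase Syk and so drives phagocytosis, oxidative burst and degranulation. FcγRIIb (Fcgr2b), PIR-B (Pirb), SIRPα (Sirpa) and CD300f (Cd300lf) carry ITIM motifs that recruit phosphatases such as SHP-1 and SHIP-1 and dampen activation. Such inhibitory receptors often have activating relatives with a similar outer domain, which is why they are called paired receptors.

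Reads recovered from the table numbered 13743581 to 18459792 per Control library and 17097739 to 19616066 per LOY library. As a check of the labels, the summed level of 4 Y-linked genes lay between 2716 and 4474 normalized reads in Control and between 2.78 and 1422 in LOY, with the library labelled LOY 4 at 1422 and LOY 5 at 108. The libraries Control 1, Control 2 and Control 12 stood apart by the share of listed genes at 0 reads, which was 20.5%, 21.7% and 17.3%, against 6.59% to 11.6% in the other 9. All 12 neutrophil markers, which include the member Trem1, were listed, led by S100a8 and S100a9. Their sum was 1368460 to 2424330 normalized reads in Control and 1376900 to 2053370 in LOY. Of 14 monocyte and macrophage markers 7 were listed, led by Csf1r and Cd14. The sum of these markers was 18992 to 29383 in Control and 21792 to 28751 in LOY. Irf8 and F13a1 were at 0 in every Control library and reached up to 228 and 138 in LOY (means 74.7 ± 88.2 and 36.2 ± 59.0, SD, n = 6). F13a1 was at 0 in 10 of the 12 libraries and Irf8 in 7. The Control and LOY means were 9279 and 12442 for Csf1r and 6470 and 6628 for Cd14. The mean was lower in LOY for Mpeg1 (4389 and 3706), Adgre1 (2552 and 2129) and Ly86 (22.6 and 19.3). All 9 B cell markers were listed, led by Ighm and Igkc (4078 to 7737 in Control, 2004 to 8757 in LOY), whereas the sums of T cell markers (4 of 8 listed), NK cell markers (1 of 7) and dendritic cell markers (2 of 7) stayed at or under 408 in every library. Mast cell and basophil markers (5 of 7 listed) summed to 26315 to 36857 in Control and 20667 to 32662 in LOY, mostly Hdc, with Fcer1a at 0 in 8 libraries. Eosinophil markers (3 of 8 listed, led by Siglec5 and Ccr3) summed to 783 to 1491 and 947 to 1712, and platelet markers (7 of 8) to 532 to 1426 and 577 to 1361. Erythroid markers, led by Hba-a1 and Hbb-bs, summed to 72825 to 142712 in Control and 93775 to 629529 in LOY, with the highest sum in LOY 15. What these other transcripts contribute to the values below was not tested, beyond the values given beside Fcgr2b.

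Because the receptors belong to families with near-identical members, the coding sequences of the 10 genes were compared with each other. In windows, they were also compared with all annotated transcripts of other genes, coding or not, on either strand. The stretches below are those that bear on how far the reads of a member can be assigned to it. The longest sequence that Fcgr3 and Fcgr2b share is 129 bases. It lies across coding exons 3 and 4 of Fcgr3 (GRCm38 chr1:171057691-171057792 and chr1:171054167-171054193, minus strand) and the same exons of Fcgr2b (chr1:170967980-170968081 and chr1:170966674-170966700, minus strand). The longest sequence that Cd300lf shares with its neighbour Cd300ld is 134 bases in exon 2 (GRCm38 chr11:115126150-115126283, minus strand). Each is printed 5′ to 3′ as coding sequence from the GENCODE vM21 transcript, with the shared bases in capitals and 15 bases of the named gene on either side in lower case.
Fcgr3: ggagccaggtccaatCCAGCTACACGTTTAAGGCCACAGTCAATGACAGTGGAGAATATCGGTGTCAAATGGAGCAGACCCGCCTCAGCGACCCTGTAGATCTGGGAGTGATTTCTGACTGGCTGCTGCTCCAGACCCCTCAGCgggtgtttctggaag
Fcgr2b: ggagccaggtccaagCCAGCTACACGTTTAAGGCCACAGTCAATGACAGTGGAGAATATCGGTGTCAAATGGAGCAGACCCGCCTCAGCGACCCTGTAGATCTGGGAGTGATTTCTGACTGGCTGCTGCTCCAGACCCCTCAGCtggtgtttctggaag
Cd300lf: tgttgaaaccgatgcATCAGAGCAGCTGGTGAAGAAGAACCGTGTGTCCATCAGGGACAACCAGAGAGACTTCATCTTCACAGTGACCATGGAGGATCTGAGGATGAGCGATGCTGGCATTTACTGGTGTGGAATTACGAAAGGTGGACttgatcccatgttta
Of the 50-base windows of the Fcgr3 coding sequence, 22.1% (166 of 752) also occurred in another gene, and that gene was Fcgr2b in every case. The share was 17.1% (166 of 971) for Fcgr2b, again with Fcgr3 alone. It was 52.2% for Pirb, whose windows recurred in 9 other genes, Gm14548 above all (33.0%), and 10.5% for Cd300lf, mostly in Cd300ld (9.88%). No window of Fcgr4, Fcer1g, Sirpa, Cd47, Trem1 or Trem3 recurred in another gene. With 100-base windows the shares were 6.27% for Fcgr3, 4.78% for Fcgr2b, 37.8% for Pirb and 3.84% for Cd300lf. The sources used here do not give how reads from such stretches were assigned. The values of Pirb, Fcgr3, Fcgr2b and Cd300lf are therefore uncertain to the extent that counting could split reads between relatives. The window shares do not rank this uncertainty, because it also depends on the level of the relative. Fcgr2b had a mean of 702 normalized reads, and Fcgr3, the only gene with which it shared windows, had 29802.

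The members spanned a wide range of abundance. Values were divided by exon length, the union of all annotated exons of a gene, so the ranks depend on that annotation. Fcer1g was highest at 33203 ± 2774 normalized reads per kb (SD over all 12 libraries), rank 25 of 9727 tested genes with a known length. Fcgr3 followed at 17167 ± 1204 (rank 50), then Trem3 at 8224 ± 759 (rank 105), Pirb at 7438 ± 1131 (rank 122), Cd300lf at 5656 ± 509 (rank 160) and Trem1 at 5153 ± 829 (rank 173). Fcgr4 at 1854 ± 360 and Sirpa at 1740 ± 389 lay at ranks 447 and 480, Cd47 at 722 ± 96.4 at rank 1002, and Fcgr2b was lowest at 121 ± 27.7 (rank 3641), where the median tested gene had 70.7. The ranges over the libraries overlapped between the neighbours Trem3 and Pirb, Pirb and Cd300lf, Cd300lf and Trem1, and Fcgr4 and Sirpa. Within a library, however, Pirb exceeded Cd300lf per kb in 12 of 12, Trem3 exceeded Pirb in 8 of 12, Cd300lf exceeded Trem1 in 8 of 12, and Fcgr4 exceeded Sirpa in 6 of 12. The ranges of the other 5 neighbouring pairs did not overlap. Together the 10 genes held 0.896% to 1.01% of the total normalized reads of a library.

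**Figure D1:**
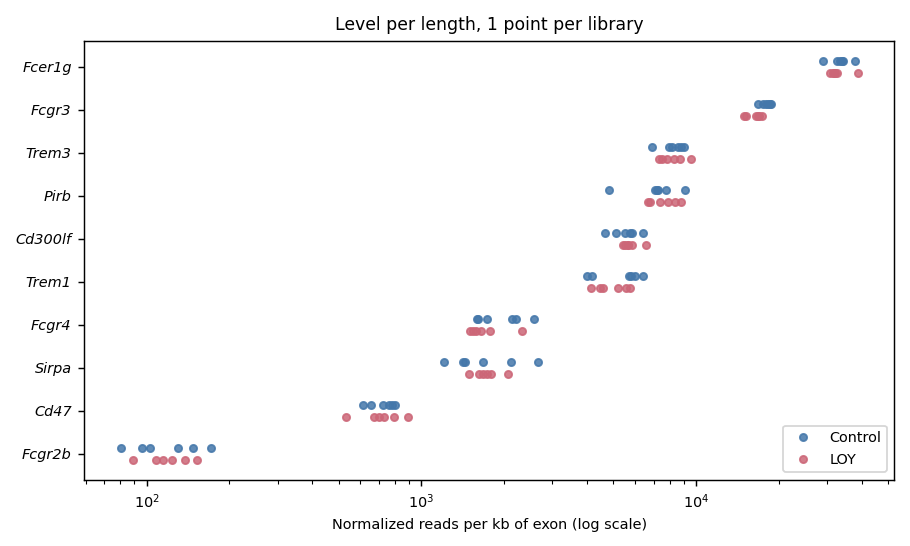
Normalized reads per kb of exon on a log axis for the 10 genes, ordered by their mean, with 1 point per library coloured by group. Fcer1g and Fcgr3 lie above every other member in all 12 libraries and Fcgr2b lies below every other member.

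The comparison of LOY with Control asks whether these receptor genes differ between the groups. None of the 10 passed the test (limma on log2(value + 1), Benjamini-Hochberg adjusted p under 0.05 over 9742 genes), a threshold passed by 2 genes or 0.0205% of those tested. Of the 4 Y-linked genes used to check the labels, 2 were tested and 0 passed, although their sum did not overlap between the groups. Failing this threshold therefore does not show that a gene is unchanged. By unadjusted p under 0.05, limma picked 1 member, Fcgr3, which was lower in LOY, against 6.04% of all tested genes (4.40% higher and 1.63% lower in LOY). Neither edgeR (0% of tested genes by adjusted p, 2.94% by unadjusted p) nor DESeq2 (0.0411% and 4.16%) called a member after adjustment, and by unadjusted p edgeR picked 0 members and DESeq2 picked Fcgr3. No member had groups that did not overlap, a separation found for 0.287% of tested genes. The 10 log2 fold changes, of which 4 were above and 6 below 0, ran from -0.18 to 0.10 with a median of -0.01, where the median over all tested genes was 0.14 and over the 3582 genes with a mean of at least 500 normalized reads 0.00.

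**Figure D2:**
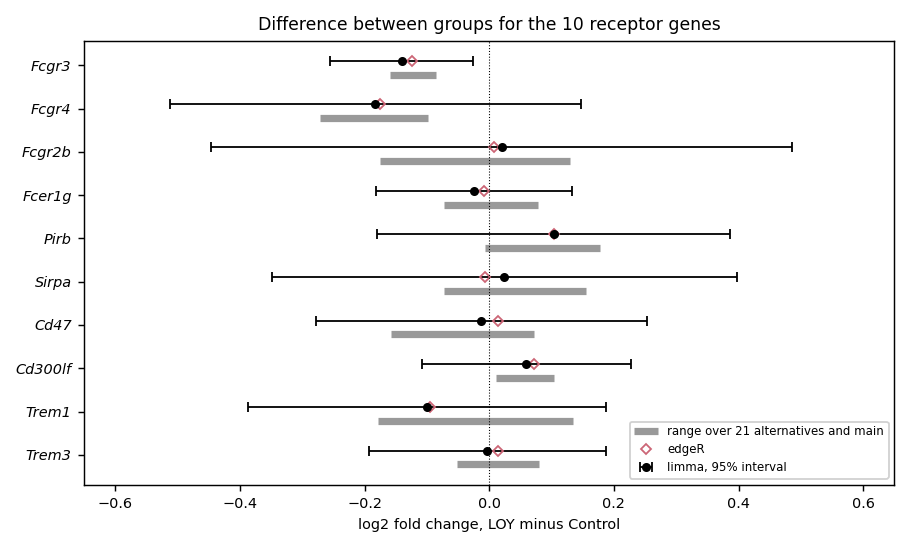
Log2 fold change of LOY against Control for the 10 genes, with the limma estimate (black point) and its 95% confidence interval, the edgeR estimate (open diamond) and, as a grey bar, the range over that estimate and 21 alternative settings. All 10 limma intervals lie between 0.701-fold and 1.40-fold, and the interval of Fcgr3 is the only 1 that does not include 0.

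Fcgr3, the activating IgG receptor of mouse neutrophils that binds immune complexes, lies at GRCm38 chr1:171051174-171064935 (ENSMUSG00000059498). It ran from 29184 to 32633 normalized reads in Control (median 31425) and from 25988 to 30226 in LOY (median 29000). The groups overlapped only through Control 18, at 29184: the other 5 Control libraries lay above every LOY library, and 3 LOY libraries lay below every Control library. The mean was 31239 ± 1295 (SD, n = 6) in Control and 28365 ± 1727 (SD, n = 6) in LOY, a log2 fold change of -0.14 ± 0.05 (SE; 95% interval -0.26 to -0.03). With limma the unadjusted p was 0.0202 and the Benjamini-Hochberg adjusted p 0.770. In the authors' deposited table the log2 fold change of Fcgr3 is -0.14 with an adjusted p of 0.754. The value was smaller without the 3 libraries rich in genes at 0 (-0.10, limma unadjusted p 0.163) and after adjusting for each library's zero-count share (-0.09, limma unadjusted p 0.211), and it was -0.12 without LOY 4 (limma unadjusted p 0.0482). Fcgr3 also varied little within groups: its pooled SD on the log2 scale was 0.076, below that of all but 0.056% of the genes with a mean of at least 500. Those genes were not matched for level to Fcgr3, whose mean was 29802.

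Fcgr4, the receptor for IgG2 subclasses on mouse neutrophils and monocytes (chr1:171018920-171029761), ran from 2004 to 3228 in Control (median 2431) and from 1891 to 2923 in LOY (median 2029). Of the LOY libraries 3 lay below every Control library, but LOY 19 stood at 2923, inside the upper part of the Control range. The log2 fold change was -0.18 ± 0.15 (SE; limma adjusted p 0.852). Fcer1g, the shared signalling chain (chr1:171229572-171234365), ran from 25281 to 33101 in Control (median 29474) and from 26946 to 33829 in LOY (median 27917), and its log2 fold change was -0.02 ± 0.07 (limma adjusted p 0.950). Its LOY libraries sat within the Control range except LOY 10, which held the highest value of all 12. Fcgr2b, the inhibitory IgG receptor and also the main Fc receptor of B cells, is coded within 276 kb of the other 3 (chr1:170958617-170976547). It ran from 467 to 992 in Control (median 674) and from 518 to 884 in LOY (median 689), so that the LOY values all lay inside the Control range. Its log2 fold change was 0.02 ± 0.21 with a 95% interval of -0.45 to 0.49 (limma adjusted p 0.985), the widest of the 10. Fcgr2b shares 155 exon bases (2.68% of its exons) with Gm38204 on the other strand, and the library kit does not mark strand.

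The B cell marker sum was set beside Fcgr2b because B cells also make it. In Control the library with the lowest Fcgr2b, Control 12 (467), had a B cell sum of 5400 and the library with the highest, Control 18 (992), had 7737, the highest Control sum. Between them, Control 6 (558), Control 2 (753) and Control 17 (857) kept this order, with B cell sums of 6510, 7014 and 7215. Control 1 did not keep it: it had the lowest Control sum (4078) and Fcgr2b at 595. Nor did the LOY libraries: LOY 5, with the highest LOY value of Fcgr2b (884), had a B cell sum of 5490. LOY 10, with the lowest sum of all libraries (2004), had Fcgr2b at 716. LOY 9, with the highest sum (8757), had Fcgr2b at 661. In LOY 4, LOY 15 and LOY 19, Fcgr2b was 518, 624 and 798, beside B cell sums of 5718, 2543 and 7596. The part of B cell RNA in the Fcgr2b level was not tested further.

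The balance of activating to inhibitory Fc receptor transcripts was taken per kb within each library. The exon length used was 5790 bases for Fcgr2b, 1736 for Fcgr3 and 1256 for Fcgr4, and the size of the ratio depends on these lengths. It also depends on how reads from the stretches shared by Fcgr3 and Fcgr2b were assigned. Before division by length, the means over the 12 libraries were 29802 normalized reads for Fcgr3, 2329 for Fcgr4 and 702 for Fcgr2b. The sum of Fcgr3 and Fcgr4 was 177 ± 56.9 times Fcgr2b in Control (range 108 to 263) and 153 ± 23.0 times in LOY (range 122 to 188), so that the LOY range lay inside the Control range. Fcgr3 was 9.38 ± 1.71 times Fcgr4 in Control and 9.64 ± 1.60 times in LOY, with nearly the same ranges (7.25 to 11.4 and 7.23 to 11.6). Fcer1g was 1.68 ± 0.14 times the sum of Fcgr3 and Fcgr4 in Control (1.56 to 1.94) and 1.82 ± 0.15 times in LOY (1.64 to 2.05). These errors are SDs over 6 libraries, and the 2 groups overlapped for every ratio.

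**Figure D3:**
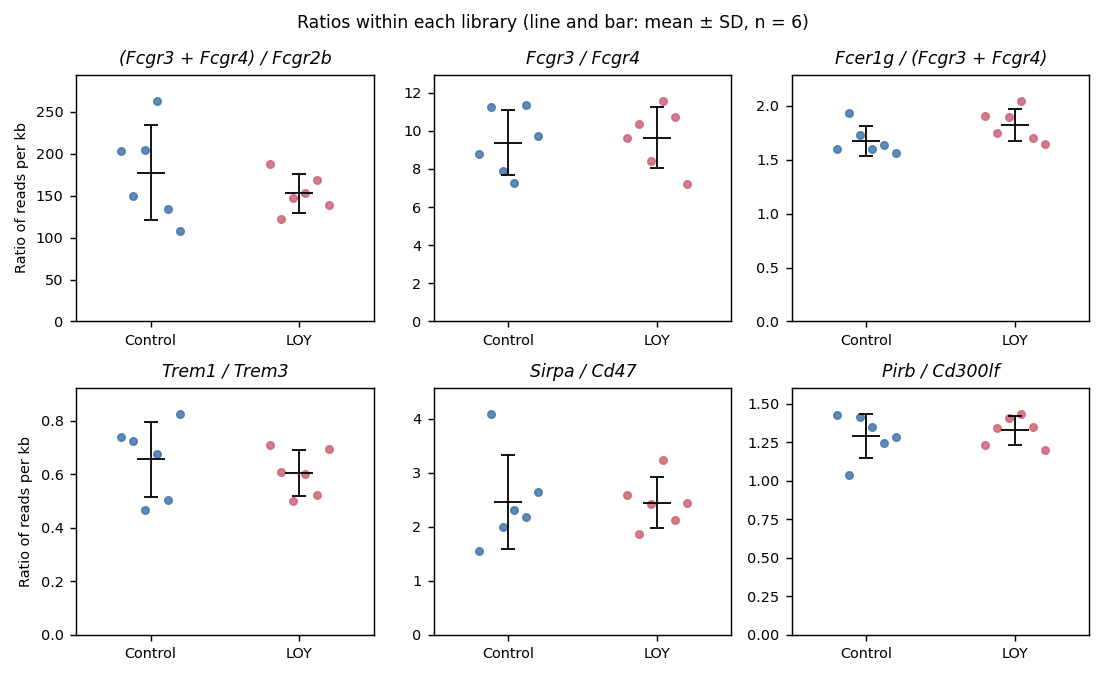
Ratios of normalized reads per kb between receptors and partners in each library, with Control and LOY side by side, 1 point per library and a bar at the group mean with its SD. The groups overlap in every panel, and the ratio of Sirpa to Cd47 is lowest in Control 1 (1.55) and highest in Control 2 (4.08).

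Pirb, which binds MHC class I and restrains integrin signalling in neutrophils, was per kb the most abundant of the inhibitory receptors among the members (chr7:3711409-3720391). It ran from 21625 to 40864 in Control (median 32382) and from 29864 to 39517 in LOY (median 34220). All LOY libraries lay inside the Control range, which was set by Control 2 at the bottom and Control 1 at the top. The log2 fold change was 0.10 ± 0.13 (SE; limma adjusted p 0.882). Among the relatives that share sequence with Pirb, the 3 with the highest means were measured as follows: Lilra6 was 10415 ± 1543 in Control and 11023 ± 717 in LOY, Gm14548 was 3566 ± 835 and 4204 ± 656, and Pira2 was 2191 ± 714 and 2244 ± 323 (SD, n = 6 each).

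Sirpa, the receptor for the "don't eat me" signal CD47 (chr2:129592835-129632228), ran from 5932 to 13091 in Control (median 7643) and from 7327 to 10104 in LOY (median 8345). Its Control range was again set by Control 1 and Control 2, but in the opposite order, with Control 1 lowest and Control 2 highest. The log2 fold change was 0.02 ± 0.17 (limma adjusted p 0.981). Cd47 itself, which is made by nearly all cells and protects blood cells from phagocytosis (chr16:49800533-49915010), ran from 3850 to 5019 in Control (median 4667) and from 3343 to 5618 in LOY (median 4502). LOY 10 held its lowest and LOY 5 its highest value, and the log2 fold change was -0.01 ± 0.12 (limma adjusted p 0.983). The ratio of Sirpa to Cd47 per kb was 2.46 ± 0.875 in Control and 2.45 ± 0.469 in LOY (SD, n = 6 each).

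Cd300lf, which recognises phosphatidylserine and ceramide on dying cells and other surfaces, lies on chromosome 11 (115116214 to 115133992). It ran from 24026 to 33050 in Control (median 28956) and from 27896 to 33694 in LOY (median 29032). As for Pirb, Control 2 was lowest and Control 1 highest among the Control libraries, and LOY 4 lowest and LOY 15 highest among the LOY libraries. The log2 fold change was 0.06 ± 0.08 (SE; limma adjusted p 0.884). Pirb was 1.29 ± 0.143 times Cd300lf per kb in Control and 1.33 ± 0.093 times in LOY, and both genes were described from reads that their relatives may share.

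TREM-1 and TREM-3 are activating receptors that signal through DAP12 (Tyrobp) and amplify inflammatory responses of neutrophils. Their genes lie 852 bp apart on chromosome 17 (Trem1 48232768 to 48246924, Trem3 48247777 to 48258841). Trem1 ran from 12008 to 19136 in Control (median 17259) and from 12433 to 17243 in LOY (median 14668), with Control 17 and Control 6 far below the other Control libraries. Its log2 fold change was -0.10 ± 0.13 (limma adjusted p 0.887). Trem3 ran from 6894 to 8944 in Control (median 8306) and from 7294 to 9512 in LOY (median 8023), with a log2 fold change of -0.00 ± 0.09 (limma adjusted p 0.995). Per kb, Trem1 was 0.656 ± 0.141 times Trem3 in Control and 0.606 ± 0.085 times in LOY, and the neighbours did not keep a fixed ratio: it was 0.466 in Control 6 and 0.825 in Control 18.

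**Figure D4:**
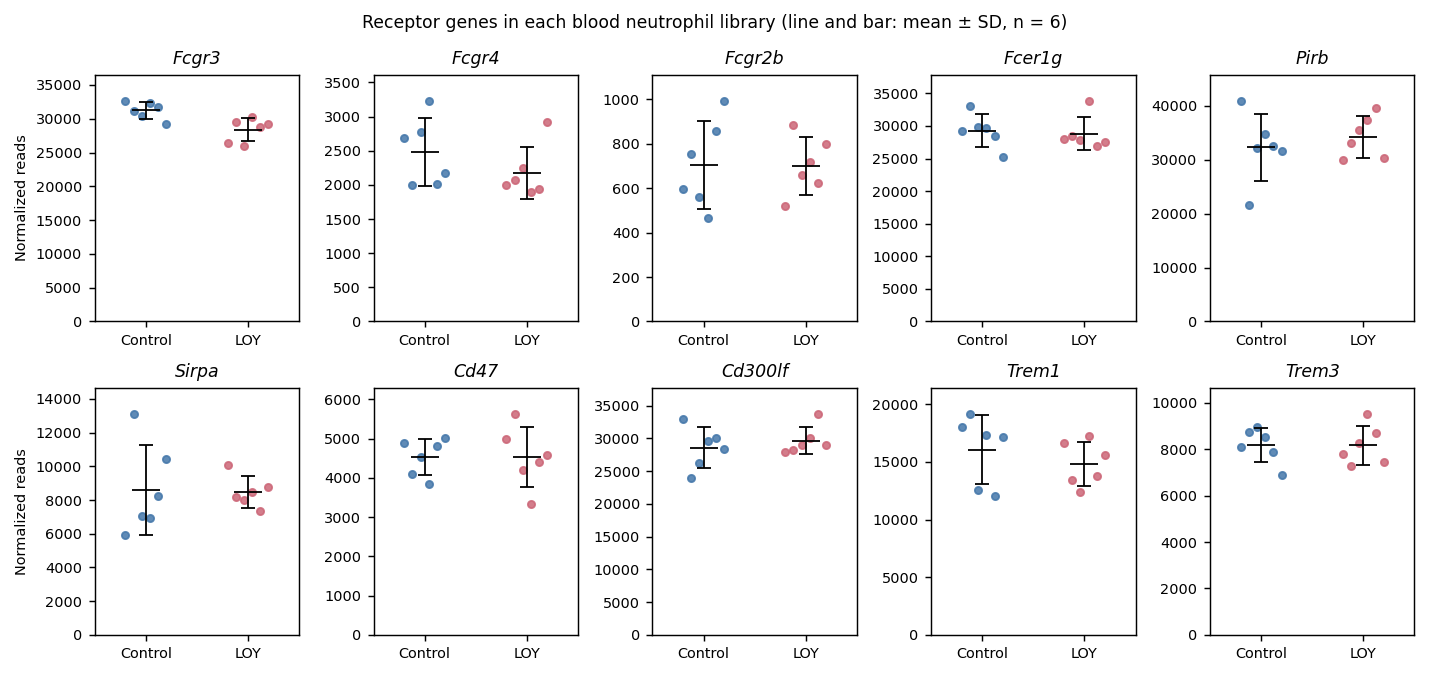
Normalized reads of each of the 10 genes in the 6 Control and 6 LOY libraries, 1 panel per gene, with 1 point per library and a bar at the group mean with its SD. The groups overlap in every panel, and Fcgr3 overlaps only through Control 18 at 29184.

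The spread between libraries sets what these comparisons could show. The median SE of the 10 fold changes was 0.13 on the log2 scale, against 0.56 over all tested genes and 0.24 over those with a mean of at least 500. All 10 intervals lay within 1.5-fold in either direction, which held for 33.9% of the genes with a mean of at least 500. The outer bounds of the 10 intervals were 0.701-fold and 1.40-fold, so changes beyond those sizes lay outside every interval. The pooled SD of every member was below the median SD of those genes (0.43). The members that varied least after Fcgr3 were Fcer1g, Cd300lf and Trem3, at percentiles 1.20, 1.79 and 2.35 of that SD, and those that varied most were Sirpa and Fcgr2b, at percentiles 30.0 and 35.5. In none of these comparisons were the other genes matched to the members for level. Among the libraries, Control 2 departed most from the 12-library mean over the 10 genes (root mean square 0.33 on the log2 scale, with Sirpa at 0.65 above its mean), followed by Control 12 at 0.27 and Control 1 at 0.24. LOY 9 departed least, at 0.13.

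Other genes of these pathways were followed as lists. Over all tested genes, 0.0205% passed the limma test and 6.04% had an unadjusted limma p under 0.05. Of 14 other Fc receptor genes 6 were listed and 4 tested, and none passed the test or had an unadjusted limma p under 0.05. Among them, Fcer2a, the low-affinity IgE receptor of B cells, was 140 ± 172 in Control and 43.5 ± 59.0 in LOY, and Fcrl1, a B cell receptor, was 668 ± 307 and 674 ± 128. Trim21, the cytosolic antibody receptor, was 390 ± 220 and 187 ± 97.9 with a log2 fold change of -1.14 ± 1.43. The median of these 4 was -0.68, 1 above and 3 below 0, and the SE was 1.91 for Fcer2a (log2 fold change -1.42).

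Of 48 other paired receptors 28 were listed and 26 tested, and none passed (19 above and 7 below 0, median 0.08). The most abundant was Lilrb4a, an ITIM receptor, at 70854 ± 17939 in Control and 76620 ± 7386 in LOY, and Cd300ld, an activating relative of Cd300lf, was 35040 ± 3762 and 35285 ± 3080. By unadjusted limma p under 0.05 the list held 1 gene, 3.85% of its tested genes against 6.04% of all tested genes. It was Clec4a2, a C-type lectin receptor (1993 ± 332 in Control, 1535 ± 310 in LOY, log2 fold change -0.38 ± 0.16, limma p 0.0309, adjusted p 0.797). Sirpb1c, an activating relative of Sirpa, was 5857 ± 598 and 6695 ± 641 (0.19 ± 0.09, limma adjusted p 0.810).

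The ITAM signalling list holds Tyrobp and kinases, adaptors, phospholipases, GTPases, calcium channels and other genes linked to ITAM signalling. Of 39 genes 35 were listed and 33 tested, none passed and none had an unadjusted p under 0.05 (14 above and 19 below 0, median -0.03). Tyrobp, the DAP12 adaptor of Trem1 and Trem3, was 206484 normalized reads per kb, above every member, with 139775 ± 8594 normalized reads in Control and 135675 ± 17302 in LOY. Rac2, a GTPase of the oxidative burst, was 56838 ± 5325 and 54974 ± 6530. Bcl10, an adaptor to NF-κB, was 4702 ± 616 and 4171 ± 474, and Gab3, a docking adaptor, was 467 ± 114 and 315 ± 97.2 (log2 fold change -0.58 ± 0.27, limma adjusted p 0.810).

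The ITIM signalling list holds phosphatases, kinases and adaptors linked to inhibitory receptors. Of 17 genes 16 were listed and tested, and none passed (10 above and 6 below 0, median 0.03, none with an unadjusted limma p under 0.05). Ptpn6, the phosphatase SHP-1, was 34682 ± 4403 in Control and 34442 ± 3023 in LOY, a log2 fold change of -0.00 ± 0.09, and Ptprc, the phosphatase CD45, was 34523 ± 5384 and 37830 ± 3412 (0.14 ± 0.11). Dok3, an inhibitory adaptor, was 10884 ± 1380 and 9679 ± 1440 (-0.17 ± 0.11), and Csk, the kinase that restrains Src family kinases, was 2509 ± 675 and 1928 ± 346 (-0.36 ± 0.19, limma adjusted p 0.810). Of 18 genes for ligands and partners of the receptors 12 were listed and tested, again with none past the test and none with an unadjusted p under 0.05 (6 above and 6 below 0, median 0.01). In this list the class I genes H2-D1 and B2m, whose products form MHC class I, were 196903 ± 13587 and 31442 ± 5605 in Control and 192655 ± 11246 and 28837 ± 3625 in LOY. Calr, the chaperone calreticulin, was 686 ± 203 and 915 ± 167 (0.47 ± 0.26, limma adjusted p 0.810), and Il4ra, the interleukin-4 receptor chain, was 6718 ± 1642 and 8209 ± 361 (0.34 ± 0.18, limma adjusted p 0.810).

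**Figure D5:**
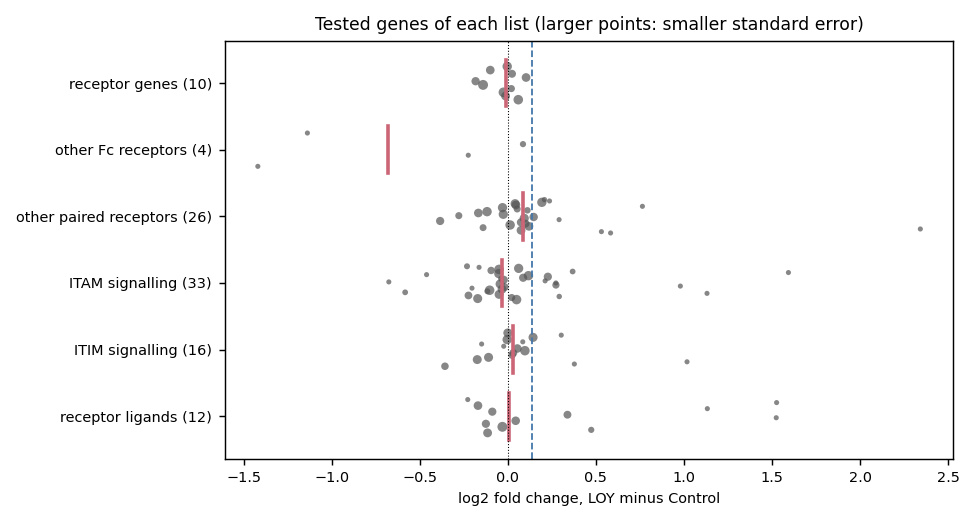
Log2 fold changes of LOY against Control for the tested genes of the 10 members and of the 5 pathway lists, 1 point per gene (larger for a smaller SE), with the median of each list as a red bar, a dotted line at 0 and a dashed line at the median of all tested genes (0.14). The medians run from -0.68 for the other Fc receptors, of which 4 were tested, to 0.08 for the other paired receptors.

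For the members other than Cd47, the tested gene with the most similar profile was found by the root mean square difference of log2 values over the 12 libraries, after subtracting each gene's mean. It was Mpc1 for Fcgr3 (0.080), Arpc1b for Fcer1g (0.064), Dusp6 for Fcgr4 (0.148), Pold4 for Fcgr2b (0.229), Tcp11l2 for Pirb (0.103), Krr1 for Sirpa (0.182), Stk38 for Cd300lf (0.072), Cd9 for Trem1 (0.122) and Lsp1 for Trem3 (0.084). For none of these was another member the nearest gene. The typical tested gene lay between 0.88 and 0.93 from each of them on the same scale, and a small difference is easier to reach for genes that vary little in all libraries.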

How the data were processed

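RNA was measured in 12 libraries of blood neutrophils, 6 Control and 6 LOY, made with SMART-Seq v4 and Nextera XT per the labels' protocols. Tools listed in the submitters' processing notes are STAR 2.5.2b, Subread 1.5.2, featureCounts, Trimmomatic 0.36 and bcl2fastq 2.17, and the build is GRCm38 (mm10). The deposited signal has no unit in the file headers. In every library 100% of its values are whole multiples of 1 step (tolerance 0.02 reads), so it is gene reads scaled by a single factor for each library, and these reads were recovered. The authors' log2 fold changes and p-values stand in the same deposited table, and the sources used here do not name their tool. The lowest listed mean was 8.63, and 16 gene names that had turned into dates were restored by identifier. GENCODE vM21 gave coordinates and exon lengths for 11475 of 11494 identifiers.

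Genes with a value of at least 10 in at least 6 libraries were fitted with limma 3.58.1 in R 4.3.3 on log2(value + 1), with trended, robust empirical Bayes, no covariate, and Benjamini-Hochberg adjustment over all 9742 genes. Where libraries lie at or near 0, a fold change on this scale can be smaller or larger than that of the means, or differ from it in sign. Alternatives were DESeq2 1.42.0 and the quasi-likelihood test of edgeR 4.0.16 on recovered reads, quantile normalization, other filters and pseudocounts, a covariate, and libraries left out. The fit was tested on simulated data. The members and lists were chosen with earlier results of these data known. Named genes were the members and, in each list, the 2 with the smallest p and the 2 with the highest mean; in each marker list, the 2 with the highest mean; for each member, its nearest gene (that of Cd47 is not reported here). Pirb relatives were named for shared sequence, and Irf8, F13a1, Mpeg1, Adgre1, Ly86 and Fcer1a after their values were seen.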

Additional observations from a re-analysis of the deposited data

Results flagged for a closer look

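Within the 32 groups of 6 libraries that were examined for a library far from the rest (10 genes and 6 ratios, Control and LOY), 2 had one, where chance gives about 1 in 20. Fcgr4 in LOY 19 was 2923 normalized reads, with the other 5 LOY libraries at 1891 to 2241, and the gap was 0.661 of the group's range. Fcer1g in LOY 10 was 33829, with the others at 26946 to 28482, and the gap was 0.777 of the range. Both gaps exceed Dixon's 95% critical value for 6 values.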

How the results depend on the processing

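No paired analysis was possible because the groups share no replicate number. Over 21 alternatives no member passed an adjusted p of 0.05, and the largest log2 fold change was 0.27 in size. Of the 210 values 38 changed sign. Fcgr3 stayed below 0 throughout (-0.16 to -0.09, limma, edgeR or DESeq2 unadjusted p 0.012 to 0.211), with an unadjusted p under 0.05 in 17 of 21; the exceptions were edgeR (0.0553), the covariate, Controls 1, 2 and 12 left out, and LOY 9 left out (0.0502). Fcgr4 stayed below 0 and Cd300lf above 0 throughout, but their size moved: leaving out 1 library gave -0.27 (LOY 19) to -0.10 (Control 12) for Fcgr4, 0.011 (Control 2) to 0.10 (Control 1) for Cd300lf and -0.18 (Control 17) to -0.044 (Control 2) for Trem1.

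Signs changed as follows, and the cause was not tested. With each library's zero-count share as a covariate the log2 fold change was -0.093 for Fcgr2b, 0.078 for Fcer1g, 0.13 for Trem1 and 0.079 for Trem3. Without Controls 1, 2 and 12 it was -0.18 for Fcgr2b, 0.045 for Fcer1g, -0.0036 for Sirpa, 0.10 for Trem1 and 0.048 for Trem3. With edgeR it was -0.0073 for Sirpa, 0.014 for Cd47 and 0.014 for Trem3. With DESeq2 it was -0.0075 for Fcgr2b and -0.023 for Sirpa. With quantile normalization it was 0.037 for Cd47 and 0.015 for Trem3. Leaving out 1 library gave -0.088 to 0.13 for Fcgr2b, -0.073 to 0.011 for Fcer1g, -0.0067 to 0.18 for Pirb, -0.073 to 0.16 for Sirpa, -0.079 to 0.071 for Cd47 and -0.052 to 0.028 for Trem3.

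The 2 genes called over the whole table became 0 with edgeR (286 by unadjusted p), quantile normalization (626), a mean of at least 50 (414), the covariate (285) and without Controls 1, 2 and 12 (494), became 4 with DESeq2, and ranged from 0 to 17 when 1 library was left out over the same 9742 genes. Omitting Control 6 gave 17, Control 18 gave 7, Control 12 gave 5 and LOY 4 gave 3. Omitting Control 1 or 17 gave 1, and omitting Control 2 or LOY 5, 9, 10, 15 or 19 gave 0. The median of all tested genes moved from 0.14 to 0.00 with quantile normalization, -0.01 with edgeR, -0.03 with DESeq2 and -0.04 with the covariate. Fcgr2b, the scarcest member, had the widest interval.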
